A study of Mus musculus with 10 samples.

Results

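Ifitm1, Ifitm2, Ifitm3 and Ifitm6 code for interferon-induced transmembrane (IFITM) proteins. They were found by symbol in both deposited comparison tables and make up 4 of the 29893 genes whose transcripts were summed here. Their RNA was measured in 10 Smart-seq2 libraries of cells sorted by flow cytometry from the lungs of NOD/scid mice, an immunodeficient strain whose scid mutation blocks the maturation of T and B lymphocytes. The groups were CCR2+ monocytes from mice with the low metastatic tumour HCl-002 (TN2, 3 libraries), CCR2+ monocytes from mice with the highly metastatic tumour HCl-001 (TN1, 2 libraries), neutrophils from TN2 mice (3 libraries) and neutrophils from TN1 mice (2 libraries). Every mouse carried a tumour and was at end point, so each tumour comparison sets one tumour against the other, and each tumour type is 1 tumour line. Libraries are named by tag. The tags tag_367, tag_706 and tag_1341 belong to TN2 and tag_191 and tag_482 to TN1, and each occurs once per cell type. Whether each tag stands for its own mouse is not given in the labels. The p-values therefore cover only the variation among the sequenced libraries, which may be technical.

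IFITM proteins are small membrane proteins of the CD225 family. They sit at the plasma membrane and in endosomes, where they hinder the fusion of enveloped viruses with the cell membrane. Type I and type II interferons raise their transcription through JAK kinases and the transcription factors these activate, which bind interferon-stimulated response elements (ISRE) and gamma-activated sites (GAS). IFITM1 is found mainly at the cell surface, while IFITM2 and IFITM3 carry an endocytic sorting signal and are found mainly in endosomes and lysosomes; these roles are best known from human cells and, for IFITM3, also from mice. Ifitm6 is a member of the mouse cluster that human lacks.

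The 4 genes lie within 63088 bases of mouse chromosome 7 (GRCm38, chr7:140954837-141017924), and no other protein-coding gene of the GENCODE annotation lies wholly between them. Ifitm2 (ENSMUSG00000060591, chr7:140954837-140955987, minus strand) is followed by Ifitm1 (ENSMUSG00000025491, chr7:140967221-140969825, plus strand). Ifitm3 (ENSMUSG00000025492, chr7:141009586-141010770) and Ifitm6 (ENSMUSG00000059108, chr7:141015699-141017924) follow, both on the minus strand. The promoter windows of 3 members are shown because their levels in TPM, a unit explained below, did not overlap between the cell types. On the scale of the main test, Ifitm3 did overlap. Each window spans 250 bases before to 50 bases after the RefSeq start (GRCm38.p6), read 5′ to 3′ on the gene's strand, and capitals mark matches to the ISRE-like letters GAAANNGAAA. The windows are chr7:140967826-140968125 on the plus strand for Ifitm1, chr7:140955912-140956211 on the minus strand for Ifitm2 and chr7:141010695-141010994 on the minus strand for Ifitm3.
Ifitm1: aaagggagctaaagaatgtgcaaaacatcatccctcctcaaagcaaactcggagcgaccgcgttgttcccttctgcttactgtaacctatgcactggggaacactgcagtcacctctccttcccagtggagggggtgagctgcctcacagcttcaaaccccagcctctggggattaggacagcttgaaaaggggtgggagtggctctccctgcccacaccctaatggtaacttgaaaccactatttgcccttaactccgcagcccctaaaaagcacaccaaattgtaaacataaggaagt
Ifitm2: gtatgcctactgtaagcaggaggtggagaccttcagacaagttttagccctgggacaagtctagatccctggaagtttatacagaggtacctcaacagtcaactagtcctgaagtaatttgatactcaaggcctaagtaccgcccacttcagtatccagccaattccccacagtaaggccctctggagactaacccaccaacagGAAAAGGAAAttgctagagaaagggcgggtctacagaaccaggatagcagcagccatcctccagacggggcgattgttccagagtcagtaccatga
Ifitm3: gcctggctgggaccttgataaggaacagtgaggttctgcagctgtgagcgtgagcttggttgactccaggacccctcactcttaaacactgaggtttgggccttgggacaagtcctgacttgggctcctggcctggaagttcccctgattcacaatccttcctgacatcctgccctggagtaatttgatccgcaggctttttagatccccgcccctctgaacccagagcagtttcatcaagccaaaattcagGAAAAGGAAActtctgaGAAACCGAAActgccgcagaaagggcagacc

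The Ifitm2 window held 1 ISRE-like match, gaaaaggaaa, whose first base lay 46 bases before the start. The Ifitm3 window held 2, gaaaaggaaa and gaaaccgaaa, 2 and 19 bases after the start. The windows of Ifitm1 and Ifitm6 held none, which says only that these letters are not in these windows on either strand. Both windows lie inside the span of the annotated gene, and other starts of these genes were not searched. The GAS-like letters TTCNNNGAA matched once in Ifitm3, where the match overlaps the second ISRE-like match, and once in Ifitm6. Among 32851 RefSeq promoter windows of this length, 3.44% held the ISRE-like letters and 8.30% the GAS-like letters on either strand. Of 23 antiviral effector genes with a window, 11 held the ISRE-like letters. A match is a stretch of letters and not a measured binding site.

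**Figure D1:**
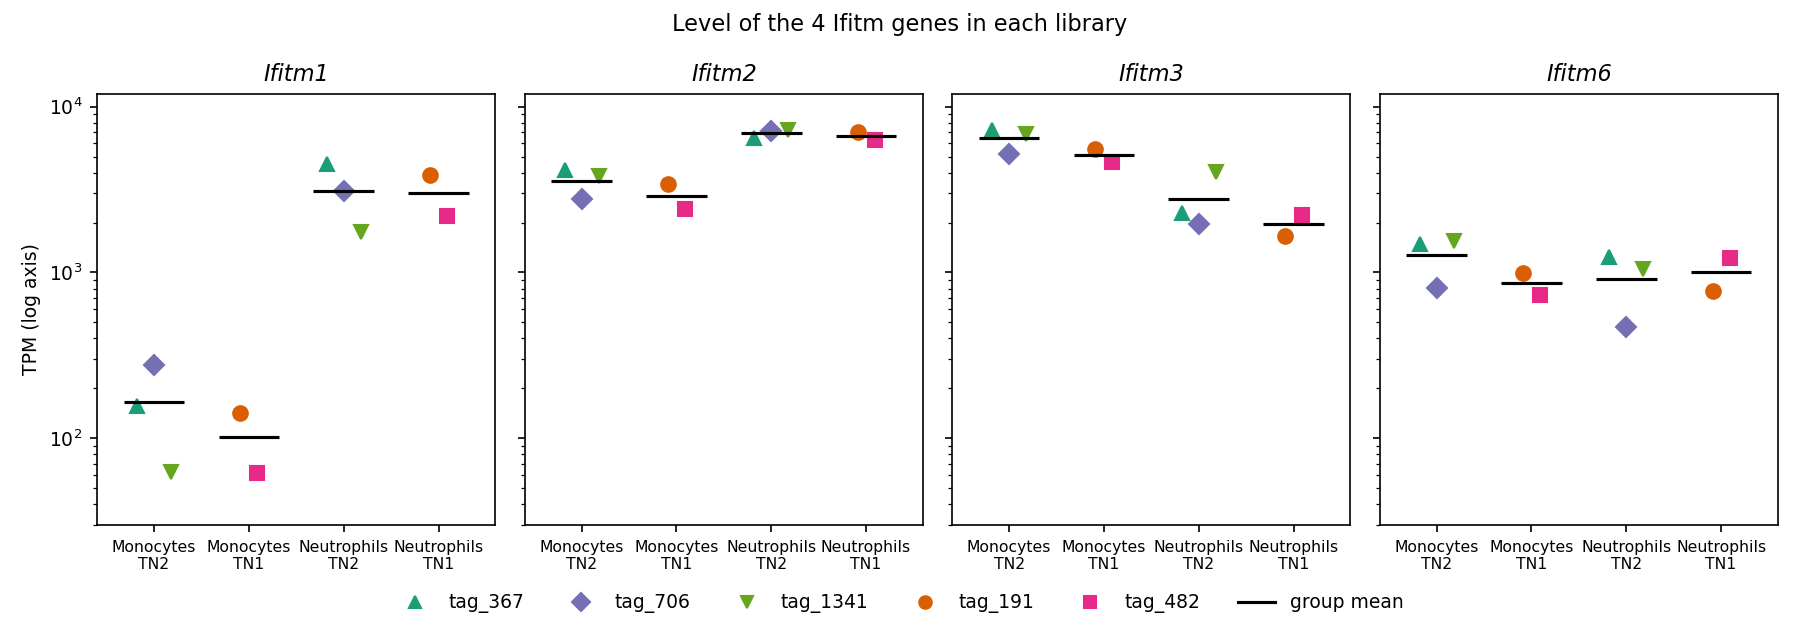
TPM of each gene in each library (log axis), with TN2 monocytes, TN1 monocytes, TN2 neutrophils and TN1 neutrophils from left to right, 1 point per library shaped by tag and a bar at the group mean. Ifitm1 lay between 61.6 and 278 TPM in monocytes and between 1751 and 4503 TPM in neutrophils, while Ifitm6 overlapped between the cell types.

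Levels are given first in TPM, a unit scaled by transcript length in which every library has the same total, so that genes may be compared. Ifitm1 had 156, 278 and 63.0 TPM in TN2 monocytes (tag_367, tag_706 and tag_1341) and 142 and 61.6 TPM in TN1 monocytes (tag_191 and tag_482). It had 4503, 3090 and 1751 TPM in TN2 neutrophils and 3856 and 2199 TPM in TN1 neutrophils. All 5 monocyte libraries were far below all 5 neutrophil libraries. Ifitm1 averaged 140 ± 88.6 TPM in monocytes and 3080 ± 1137 TPM in neutrophils (SD, n = 5 each), and the neutrophil mean was 22.0 times the monocyte mean. Of its 3 annotated transcripts, Ifitm1-202 held the largest mean share of the gene's TPM in both cell types, 55.7% in monocytes and 62.1% in neutrophils.

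Ifitm2 had 4155, 2783 and 3792 TPM in TN2 monocytes and 3394 and 2420 TPM in TN1 monocytes. It had 6485, 7145 and 7229 TPM in TN2 neutrophils and 7038 and 6318 TPM in TN1 neutrophils. The cell types did not overlap, and the neutrophil libraries were close to each other. The means were 3309 ± 711 TPM in monocytes and 6843 ± 413 TPM in neutrophils (SD, n = 5 each), the neutrophil mean being 2.07 times the monocyte mean.

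Ifitm3 ran the other way on this scale. It had 7277, 5194 and 6878 TPM in TN2 monocytes and 5571 and 4662 TPM in TN1 monocytes. It had 2271, 1969 and 4062 TPM in TN2 neutrophils and 1669 and 2228 TPM in TN1 neutrophils. Every monocyte library was above every neutrophil library, and the TN2 neutrophil library of tag_1341 stood above the other 4 neutrophil libraries. The means were 5917 ± 1117 TPM in monocytes and 2440 ± 938 TPM in neutrophils (SD, n = 5 each), the monocyte mean being 2.43 times the neutrophil mean.

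Ifitm6 had 1481, 803 and 1543 TPM in TN2 monocytes and 986 and 732 TPM in TN1 monocytes. It had 1231, 466 and 1053 TPM in TN2 neutrophils and 777 and 1227 TPM in TN1 neutrophils. The cell types overlapped, with means of 1109 ± 380 TPM in monocytes and 951 ± 328 TPM in neutrophils (SD, n = 5 each). Only 1 of the 3 annotated Ifitm6 transcripts is in the tables used here.

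Ifitm2, Ifitm3 and Ifitm6 were among the most abundant transcripts of both cell types, and Ifitm1 was so in neutrophils only. Among 21393 protein-coding genes ranked by TPM within each library, Ifitm3 ranked 15 to 23 in monocytes and 30 to 74 in neutrophils. Ifitm2 ranked 30 to 41 in monocytes and 15 to 20 in neutrophils. Ifitm6 ranked 69 to 149 in monocytes and 94 to 273 in neutrophils. Ifitm1 ranked 508 to 1864 in monocytes and 23 to 70 in neutrophils. The 4 genes together held 0.788% to 1.31% of all TPM in monocytes and 1.20% to 1.45% in neutrophils, ranges that overlap.

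The order of the levels differed between the cell types. It was Ifitm3, Ifitm2, Ifitm6, Ifitm1 from high to low in 5 of 5 monocyte libraries. It was Ifitm2, Ifitm1, Ifitm3, Ifitm6 in 3 neutrophil libraries and Ifitm2, Ifitm3, Ifitm1, Ifitm6 in 2, TN2 tag_1341 and TN1 tag_482. Ifitm1 and Ifitm3 are therefore neighbours in the neutrophil order whose levels do not differ beyond their spread, and the other neighbours in both orders kept their places in every library. Ifitm3 made up 56.7% ± 1.61 of the summed TPM of the 4 genes in monocytes and 18.2% ± 6.30 in neutrophils (SD, n = 5 each). Ifitm2 made up 31.6% ± 1.24 in monocytes and 51.6% ± 4.26 in neutrophils, and Ifitm1 made up 1.39% ± 1.0 in monocytes and 23.0% ± 7.67 in neutrophils. The ratio of Ifitm2 to Ifitm3 TPM within a library, which no scaling of whole libraries can change, ran from 0.519 to 0.609 in monocytes and from 1.78 to 4.22 in neutrophils, without overlap. This ratio was chosen after the levels had been seen and carries no test.

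**Figure D2:**
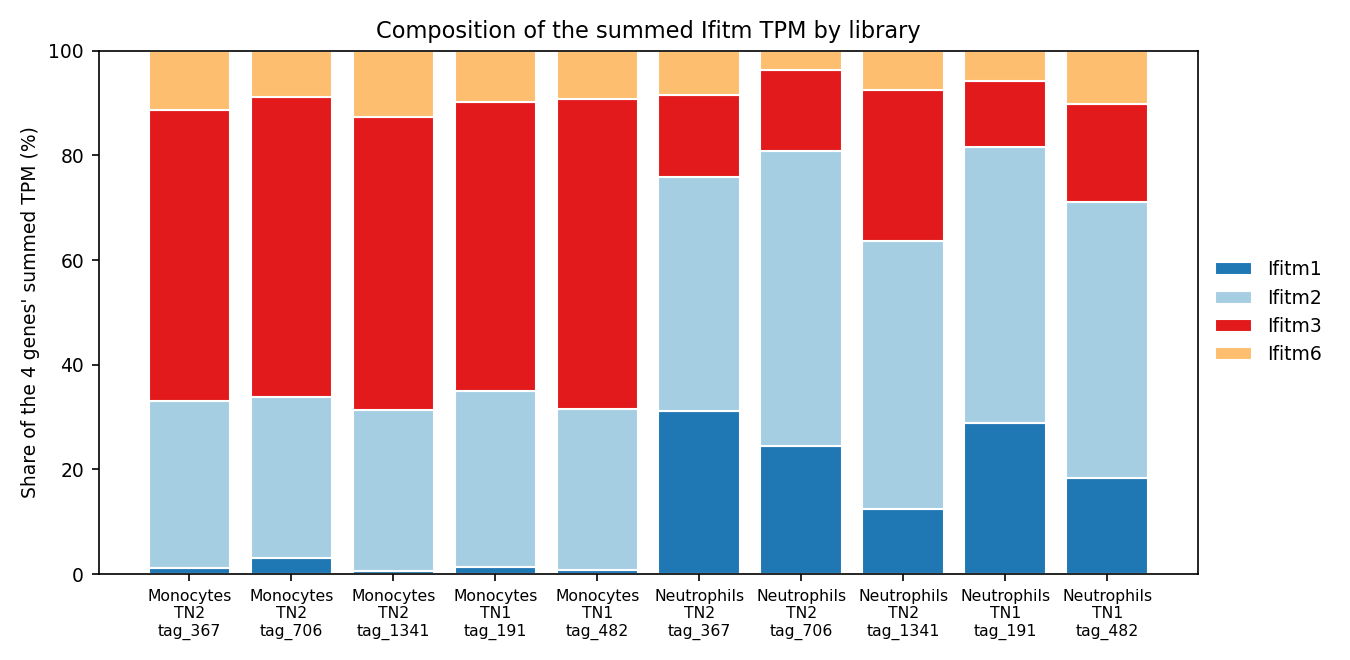
Share of each gene in the summed TPM of the 4 genes (0 to 100%) for each library, monocytes on the left and neutrophils on the right. Ifitm3 fills 55.2% to 59.2% of each monocyte bar, and Ifitm2 fills 44.8% to 56.4% of each neutrophil bar.

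Across the whole series, libraries held 7239218 to 11311370 estimated counts, and 13384 genes passed the filter on low counts, the 4 members among them. All 15 neutrophil markers were lower in monocytes by edgeR's test, and of 15 monocyte markers 11 were higher and 1 lower. Ccr2, the receptor used in the monocyte sort, had 3292 to 8960 counts in monocytes and 26 to 515 in neutrophils. The T cell marker Cd3e was at 0 in all 10 libraries. The 7 lymphocyte markers, Cd3e among them, summed to 27.0 to 41.5 CPM in neutrophils and to at most 20.6 CPM in monocytes. Of the 3 that passed the filter, 1 was lower in monocytes by edgeR. The TN2 neutrophil library of tag_1341 stood apart in monocyte markers, with a summed level of 9969 CPM against 4547 to 6047 CPM in the other neutrophil libraries and 9291 to 25743 CPM in monocytes. The TN2 monocyte library of tag_706 had 9198 counts of S100a9, a calcium-binding protein abundant in neutrophils, against 49 to 794 in the other monocyte libraries. It had 1713 CPM of endothelial markers against 24.8 to 210, and 1111 CPM of stromal markers against 4.45 to 67.6. It was also the highest monocyte library in epithelial markers (213 CPM against 2.79 to 67.9) and interstitial macrophage markers (1077 CPM against 288 to 417). The TN1 tag_482 libraries gave the largest part of their TPM to mitochondrially encoded genes, 19.9% in monocytes and 3.0% in neutrophils. The other libraries gave 4.82% to 5.82% in monocytes and 0.283% to 0.813% in neutrophils.

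The comparison of the cell types was tested with edgeR's quasi-likelihood test with Benjamini-Hochberg adjustment on counts scaled by trimmed mean of M values (TMM), and CPM are those counts set to one common library size. The test called 2 of the 4 members lower in monocytes and none higher. Of all 13384 genes, 27.9% were called, 15.5% higher and 12.4% lower in monocytes. The median of all genes was 0.46, so a member at 0 on the log2 scale stands below the typical gene. In bulk samples of sorted cells, fewer cells of a type and less RNA per cell cannot be told apart.

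Ifitm1, the surface member, had 43.5, 68.3 and 20.3 CPM in TN2 monocytes and 45.0 and 23.8 CPM in TN1 monocytes, against 1912, 1621 and 1072 CPM in TN2 neutrophils and 1900 and 1091 CPM in TN1 neutrophils. The log2 fold change, monocytes minus neutrophils, was -5.28 ± 0.45 (SE) with an adjusted p of 8.41e-05 by edgeR, and all 5 monocyte libraries were below all 5 neutrophil libraries. Neutrophil markers move with this result. Their summed level was 1692 to 3687 CPM in monocytes and 81034 to 106700 CPM in neutrophils, with 0 to 3 of the 15 markers at 0 in a monocyte library. The mean Ifitm1 CPM in monocytes was 2.65% of that in neutrophils, where the same percentage over the 15 neutrophil markers ran from 0.00619% to 48.4% with a median of 0.720%. The monocyte library with the most S100a9 counts, TN2 tag_706, had the highest Ifitm1 CPM of the monocytes. The one with the highest summed CPM of neutrophil markers, TN2 tag_1341, had the lowest. In TPM, tag_706 had the highest marker sum of the monocytes, 9491 against 4875 for tag_1341, and also the highest Ifitm1 level (278 TPM). Whether neutrophil RNA has a part in the monocyte level of Ifitm1 was not tested.

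Ifitm2 had 1123, 654 and 1002 CPM in TN2 monocytes and 1035 and 873 CPM in TN1 monocytes, against 2751, 3715 and 4200 CPM in TN2 neutrophils and 3351 and 3086 CPM in TN1 neutrophils. The groups did not overlap, and the log2 fold change was -1.85 ± 0.23 (SE) with an adjusted p of 0.000447 by edgeR. Leaving out any 1 library kept Ifitm1 between -5.61 and -5.05 and Ifitm2 between -1.98 and -1.75, with adjusted p up to 0.000923 for Ifitm1 and 0.00761 for Ifitm2.

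Ifitm3 and Ifitm6 did not pass the test on this scale. Ifitm3 had 2211, 1373 and 2043 CPM in TN2 monocytes and 1906 and 1886 CPM in TN1 monocytes, against 1083, 1151 and 2649 CPM in TN2 neutrophils and 892 and 1220 CPM in TN1 neutrophils. The overlap came from 1 library, the TN2 neutrophil library of tag_1341, which was above all 5 monocyte libraries. The log2 fold change was 0.52 ± 0.30 (SE) with an adjusted p of 0.213 by edgeR. Without that library, a choice made after seeing the data, it was 0.80 with an adjusted p of 0.0349 by edgeR. With the monocyte library of the same tag left out as well, no member was called higher. The TN2 neutrophil library of tag_1341 also had the most counts of F13a1, a monocyte gene, among neutrophils (1160 against 4 to 47). It was the highest neutrophil library in the interferon-induced Ifit3 too, at 1436 TPM against 317 to 766. Ifit3, named here after its value was seen, was at 8.12 to 169 TPM in monocytes. The part of either in the Ifitm3 level was not tested. Ifitm6 had a log2 fold change of -0.62 ± 0.33 (SE) with an adjusted p of 0.180 by edgeR, and its groups overlapped.

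The call for Ifitm3 and the sign for Ifitm6 differed between the scales. With limma on log2(TPM + 1), Ifitm3 was higher in monocytes by 1.34 ± 0.24 (SE, adjusted p = 0.00109), and Ifitm6 was at 0.17 ± 0.31 (SE, adjusted p = 0.706 by limma). The calls of Ifitm1, at -4.66 ± 0.44, and of Ifitm2, at -1.10 ± 0.19, held with the same sign. The median of all genes on that scale was 0.62. Relative to the median of its own scale, Ifitm3 stood at 0.06 by edgeR and at 0.72 on the TPM scale, and Ifitm6 at -1.08 and -0.45. Of all genes, 25.2% had monocyte libraries all above and 6.17% all below the neutrophil libraries in TPM, against 16% and 12.6% in CPM.

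**Figure D3:**
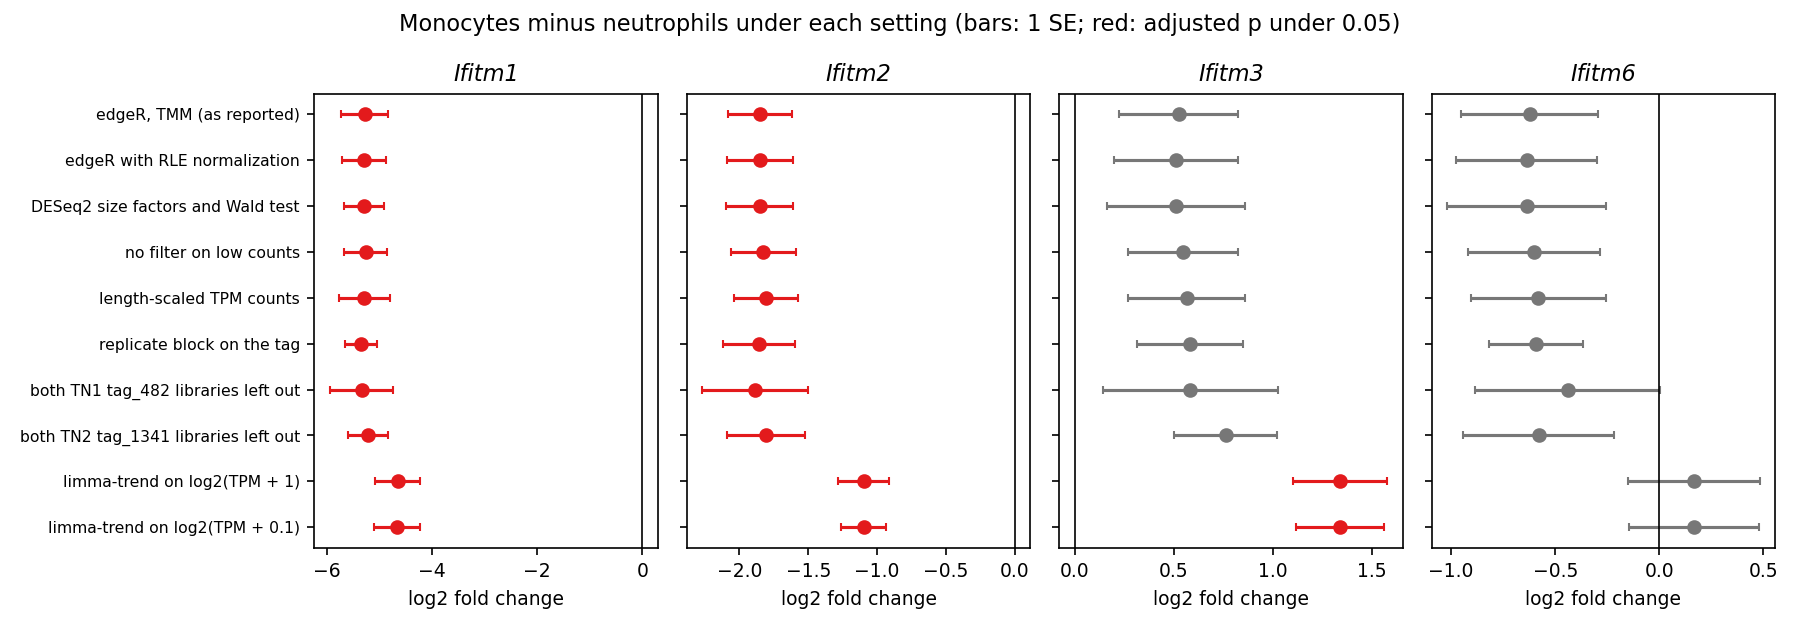
log2 fold change of each gene, monocytes minus neutrophils, under 10 settings (rows), with bars of 1 SE and red points where the adjusted p is under 0.05. Ifitm1 and Ifitm2 are left of 0 and red in each setting drawn, Ifitm3 is red in the TPM settings alone, at 1.34, and Ifitm6 changes sign there, to 0.17.

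The tumour comparison asks whether lung neutrophils and CCR2+ monocytes differ between the low and the highly metastatic tumour. No member passed the test between TN2 and TN1 in either cell type. By edgeR's quasi-likelihood test with Benjamini-Hochberg adjustment, 0 of 13384 genes (0%) were called in neutrophils and 0 in monocytes, while 625 and 379 had an unadjusted p under 0.05. DESeq2 called 87 genes in neutrophils and 22 in monocytes, none of them a member. Without the TN1 tag_191 library of the cell type compared, edgeR called 506 genes in neutrophils and 128 in monocytes, again no member. In all 4 members the TN2 and TN1 libraries overlapped in both cell types, in CPM and in TPM. Of all genes, 17.7% in neutrophils and 20.1% in monocytes did not overlap in CPM. In TPM, 17.1% and 24.4% of all genes did not overlap in neutrophils and monocytes.

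In neutrophils, TN2 minus TN1, the log2 fold changes were 0.04 ± 0.51 for Ifitm1, 0.14 ± 0.32 for Ifitm2, 0.62 ± 0.43 for Ifitm3 and -0.08 ± 0.46 for Ifitm6 (SE; adjusted p of 0.943 or more by edgeR). The value for Ifitm3 rests on the tag_1341 library and was 0.08 without it. Ifitm3 averaged 2767 ± 1131 TPM in TN2 neutrophils (n = 3), and its libraries were at 1669 and 2228 TPM in TN1 neutrophils. An interval of 2 SE either side ran from -0.23 to 1.48 for Ifitm3 and from -0.99 to 1.06 for Ifitm1, and both intervals include a 2-fold difference, which is 1 on this scale.

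In monocytes, TN2 minus TN1, the log2 fold changes were 0.36 ± 0.52 for Ifitm1, -0.04 ± 0.32 for Ifitm2, -0.02 ± 0.42 for Ifitm3 and 0.23 ± 0.46 for Ifitm6 (SE; adjusted p of 1 by edgeR). The interval of 2 SE for Ifitm2 ran from -0.68 to 0.59 and that for Ifitm3 from -0.86 to 0.83. In TPM, the 4 genes summed to 11468 ± 2124 in TN2 monocytes (n = 3) and to 10094 and 7877 in the 2 TN1 monocyte libraries, which overlap. The TN1 tag_482 library, with the high mitochondrial share, was the lowest monocyte library in Ifitm1, Ifitm2, Ifitm3 and Ifitm6 TPM, and the part of that share was not tested.

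The difference of the tumour effects between the cell types, monocytes minus neutrophils, was 0.32 ± 0.73 for Ifitm1, -0.19 ± 0.45 for Ifitm2, -0.64 ± 0.60 for Ifitm3 and 0.31 ± 0.65 for Ifitm6 on the log2 scale (SE; adjusted p of 1.0 by edgeR). The value for Ifitm3 was -0.10 without the TN2 neutrophil library of tag_1341. No gene was called, and 472 had an unadjusted p under 0.05. The authors' deposited table gave p-values of 0.991 for Ifitm1, 0.713 for Ifitm2, 0.315 for Ifitm3 and 0.714 for Ifitm6 in neutrophils. The authors' deposited table for monocytes gave p-values of 0.496 for Ifitm1, 0.363 for Ifitm2, 0.254 for Ifitm3 and 0.245 for Ifitm6, and an adjusted p of 1 for all 4 in both cell types.

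The neighbours of the cluster were far less abundant. Ifitm5, a family member known from bone-forming cells that lies beside Ifitm2, averaged 10.6 ± 5.11 TPM in monocytes and 45.0 ± 15.9 TPM in neutrophils (SD, n = 5 each), and was lower in monocytes by edgeR (log2 fold change -2.99 ± 0.51 SE, adjusted p = 0.00223). Pgghg, which codes for an enzyme that removes glucose from collagen, lies beyond Ifitm5 and was also lower in monocytes (-2.89 ± 0.73 SE, adjusted p = 0.0156 by edgeR), at 8.82 ± 5.84 TPM in monocytes and 29.1 ± 7.89 TPM in neutrophils. On the other side, Pkp3, a desmosomal plakophilin, was higher in monocytes (6.49 ± 1.57 SE, adjusted p = 0.0153 by edgeR), at 12.8 ± 6.11 TPM in monocytes and 0.618 ± 0.951 TPM in neutrophils. Gm17387 was at 0 in every library, and B4galnt4 had at most 4 counts. Gm45717, annotated across Ifitm5 and into Ifitm2 on the same strand, was not analysed here, and reads from it cannot be told apart from those of Ifitm2 where they overlap.

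**Figure D4:**
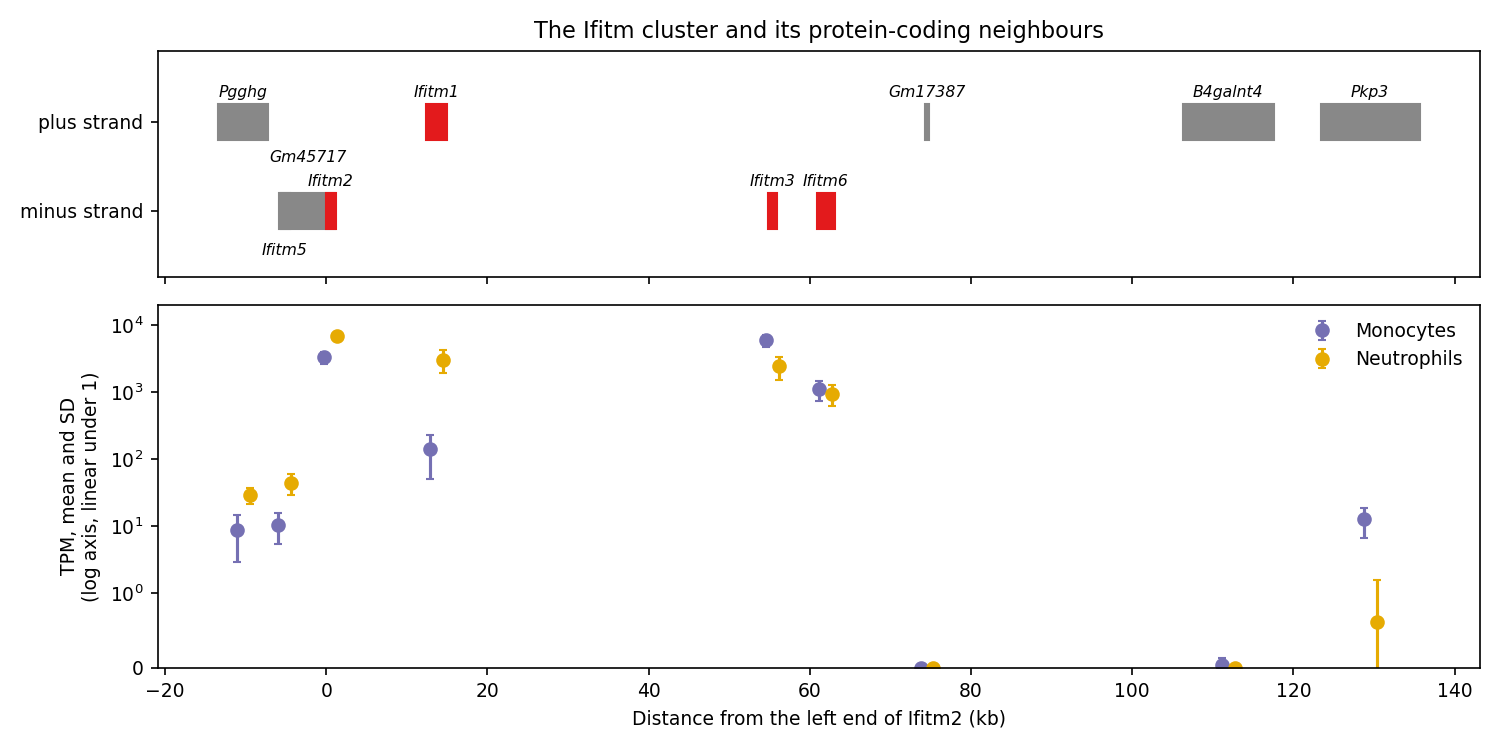
Top, the 4 genes (red) and the protein-coding genes beside them (grey) by strand and distance in kb from the left end of Ifitm2. Bottom, mean TPM with SD (n = 5 each) on a log axis that is linear under 1, monocytes drawn left of neutrophils for each gene; the 4 Ifitm genes lie between 140 and 6843 TPM and no neighbour is above 45.0.

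The members share sequence, so their reads were split by kallisto's model. Of the distinct stretches of 31 bases in their transcripts, 3.26% of Ifitm1, 6.24% of Ifitm2, 9.88% of Ifitm3 and 0% of Ifitm6 also occur in another member. These sequences come from the GENCODE release, in which 4 of the 6 member transcripts have the length given in the tables, so the shares are approximate for the other two. Counting other genes in the tables, 88.4% of Ifitm1, 64.3% of Ifitm2, 85.8% of Ifitm3 and 100% of Ifitm6 stretches were found in that gene alone. Most of the rest of Ifitm2 is shared with the processed pseudogenes Gm8865, Gm11951 and Gm2840, which had at most 1.72 TPM, 0.693 TPM and 1.10 TPM in any library.

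The genes whose profile over the 10 libraries was nearest to that of each member were found among 6660 genes with at least 10 CPM on average, by the root mean square distance of centred log2(CPM + 1). For Ifitm1 these were Ccdc189 (0.31), Ppp1r3d (0.39) and Rufy4 (0.40), which averaged 0.399 to 0.794 TPM in monocytes and 20.0 to 26.9 TPM in neutrophils. Their log2 fold changes, monocytes minus neutrophils, were -6.95, -6.41 and -7.29 by edgeR, against -5.28 for Ifitm1. The added 1 compresses values near 0 CPM, so these distances understate how far the genes differ from Ifitm1. For Ifitm2 they were Gpsm3 (0.07), a G-protein regulator, Tyrobp (0.14), the DAP12 adaptor of myeloid receptors, and Cdc42se1 (0.15). For Ifitm3 they were Ly6e (0.20), Ahsa2 (0.20) and Ifi35 (0.21), of which Ly6e and Ifi35 are themselves interferon-induced genes. Ly6e had 993, 588 and 1110 TPM in TN2 monocytes and 938 and 596 TPM in TN1 monocytes, against 275, 281 and 673 TPM in TN2 neutrophils and 217 and 262 TPM in TN1 neutrophils, with tag_1341 again the highest neutrophil library. Among those of Ifitm6 were Cers6 (0.30), a ceramide synthase, and Casp1 (0.31), the inflammasome protease. No member was among the 3 nearest genes of another: the closest pair, Ifitm3 and Ifitm6, was 0.68 apart.

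Of 10 other CD225 family genes, 5 passed the filter, and 1, Ifitm5, was lower and none higher in monocytes by edgeR, where 12.4% of all genes were lower and 15.5% higher. Their median log2 fold change was -1.93, against 0.46 for all genes. Apart from Ifitm5, the genes behind this median had low levels, at most 18.3 TPM in any library. All 5 values were negative, that of Ifitm10 included, though it averaged 4.46 TPM in monocytes and 2.51 TPM in neutrophils. Its TN1 monocyte libraries were at 0. DESeq2 called 2 of the 5 lower, where it called 2200 of 13384 genes lower. On log2(TPM + 1) the median was -0.62 against 0.62. Ifitm7 averaged 0.750 TPM in monocytes and 1.91 TPM in neutrophils, and Prrt1, Prrt2, Trarg1, Tmem233 and Syndig1 did not pass the filter.

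Of 8 genes for enzymes and partners that act on IFITM proteins, 2 were higher and none lower in monocytes by edgeR, a share near the 27.9% called of all genes, with a median of 0.57 against 0.46 for all genes. DESeq2 called 3 higher and 1 lower, where it called 3060 of 13384 genes higher and 2200 lower. With limma on log2(TPM + 1), 4 were higher and none lower, where 4532 of 13384 genes were higher and 1198 lower. The list median there was 1.28 against 0.62. Vcp, the ATPase that extracts ubiquitinated proteins and helps to clear IFITM3 from the cell in human studies, had 79.7 ± 5.08 TPM in monocytes and 12.8 ± 3.02 TPM in neutrophils (SD, n = 5 each; log2 fold change 1.99 ± 0.23 SE, adjusted p = 0.000312 by edgeR). Fyn, a kinase that phosphorylates the endocytic signal of IFITM3, had 25.9 ± 10.9 TPM in monocytes and 1.88 ± 1.46 TPM in neutrophils (3.14 ± 0.68 SE, adjusted p = 0.00759 by edgeR). Zdhhc20 and Nedd4 are named for their known roles, after their values were seen. Zdhhc20, a palmitoyltransferase that attaches the lipid anchor of IFITM3, did not pass (-0.29 ± 0.28 SE). Nedd4, the ubiquitin ligase that marks IFITM3 for degradation, did not pass either, at 8.75 ± 18.2 TPM in monocytes and 1.31 ± 0.834 TPM in neutrophils (SD, n = 5 each), with 41.2 TPM in the TN2 monocyte library of tag_706 and at most 1.21 TPM in the other monocyte libraries.

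Of 10 genes for interferon receptors and their signalling, all 10 passed the filter, 1 was higher and 4 were lower in monocytes, where 15.5% of all genes were higher and 12.4% lower, with a median of -0.33 against 0.46. The sign of that median turned on log2(TPM + 1), where 6 of 10 values were positive and the median was 0.42 against 0.62. On that scale limma called 2 of the 10 higher and 2 lower, and 4532 of 13384 genes higher and 1198 lower. Leaving out 1 library gave 3 to 5 called, with 3 without the TN2 neutrophil library of tag_367 or tag_706, the TN2 monocyte library of tag_367 or tag_1341, or the TN1 monocyte library of tag_482. Jak1, the kinase shared by all interferon receptors, had 99.8 ± 23.2 TPM in monocytes and 201 ± 25.0 TPM in neutrophils (SD, n = 5 each; log2 fold change -1.76 ± 0.20 SE, adjusted p = 0.000279 by edgeR). Irf9, a DNA-binding subunit of the factor that binds ISRE sites, had 92.1 ± 25.5 TPM in monocytes and 167 ± 29.8 TPM in neutrophils (-1.70 ± 0.23 SE, adjusted p = 0.000630 by edgeR). Ifnar1, a chain of the type I receptor, was lower in monocytes by edgeR (-1.08 ± 0.21 SE, adjusted p = 0.00412) but did not pass on the TPM scale (-0.43, adjusted p = 0.106 by limma). Jak2, the kinase of the interferon gamma receptor, was lower at an adjusted p of 0.0461 by edgeR (-0.94 ± 0.31 SE). That call was lost when 8 of the 10 libraries were left out in turn, with an adjusted p of up to 0.197, reached without the TN1 neutrophil library of tag_191. Tyk2, a kinase of the type I receptor and named here after its value was seen, was the 1 that was higher, at an adjusted p of 0.0484 by edgeR (1.75 ± 0.58 SE). No signalling gene was called higher with the tag as a block, without both tag_482 libraries or without both tag_1341 libraries.

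All 30 antiviral effector genes of the interferon response passed the filter. In monocytes 3 were higher and 14 lower than in neutrophils, against 15.5% higher and 12.4% lower over all genes, and their median was -0.94 against 0.46. Isg15, the ubiquitin-like interferon-induced protein, had 400 ± 118 TPM in monocytes and 3182 ± 764 TPM in neutrophils (SD, n = 5 each; log2 fold change -3.84 ± 0.27 SE, adjusted p = 5.09e-05 by edgeR). Oasl2, an oligoadenylate synthetase-like protein, had 208 ± 85.0 TPM in monocytes and 839 ± 175 TPM in neutrophils (-2.78 ± 0.24 SE), while Rtp4, an interferon-induced chaperone of membrane receptors, had 219 ± 41.2 TPM in monocytes and 803 ± 221 TPM in neutrophils (-2.64 ± 0.25 SE). Rsad2, the antiviral enzyme viperin, had 46.3 ± 22.9 TPM in monocytes and 363 ± 147 TPM in neutrophils (-3.93 ± 0.37 SE). The 3 that were higher in monocytes, named here after their values were seen, were Bst2, the tetherin that holds virions at the cell surface, Mx1 and Ifi44. Bst2 had 541 ± 104 TPM in monocytes and 55.4 ± 43.5 TPM in neutrophils (2.88 ± 0.44 SE). Mx1 had 36.6 ± 17.2 TPM in monocytes and 1.28 ± 0.943 TPM in neutrophils, and Ifi44 had 65.8 ± 25.8 TPM in monocytes and 4.82 ± 5.59 TPM in neutrophils. With limma on log2(TPM + 1), 6 effectors were higher and 13 lower, where 4532 of 13384 genes were higher and 1198 lower. The effector median there was -0.22 against 0.62 for all genes.

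**Figure D5:**
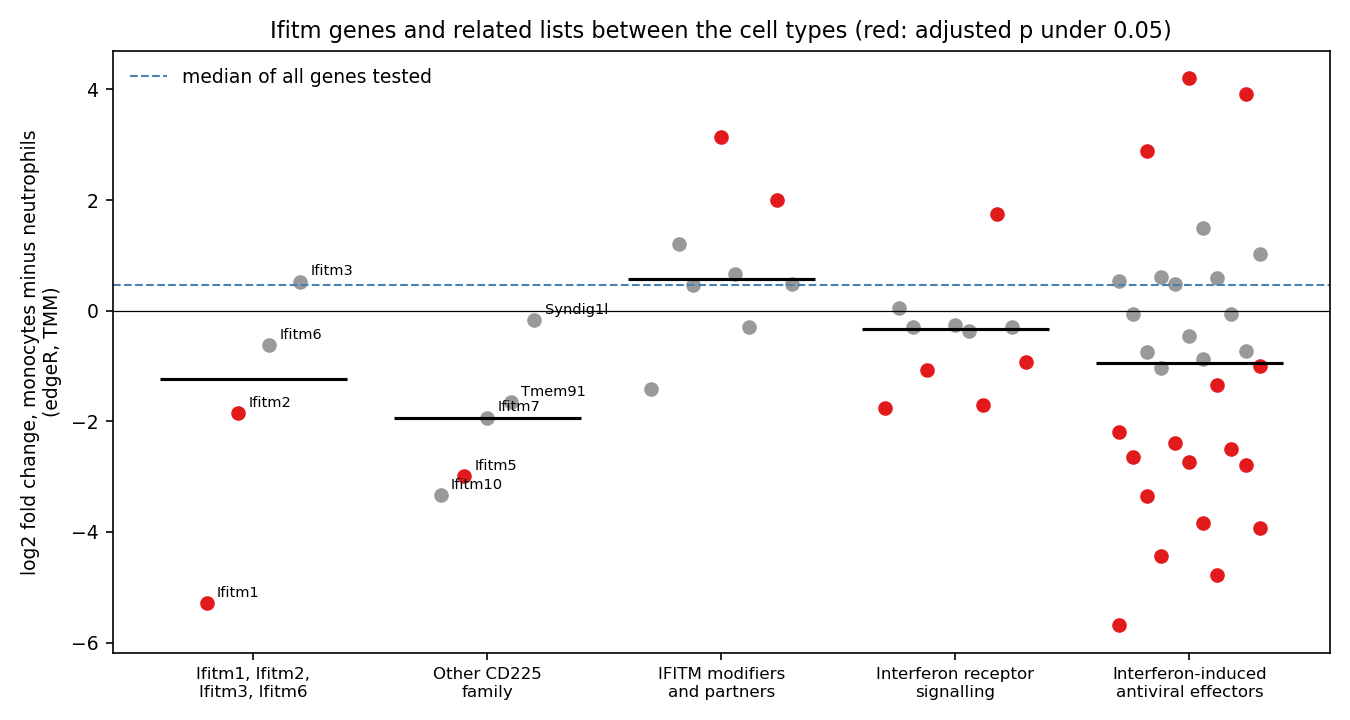
log2 fold change, monocytes minus neutrophils, of the 4 genes and of 4 related gene lists, 1 point per gene tested, red where the adjusted p is under 0.05, with a bar at each list's median and a dashed line at the median of all genes tested (0.46). The effector list has 14 red points under 0 and 3 above, and Ifitm1 is at -5.28.

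Between the tumours, none of these 4 lists had a called gene in either cell type. In neutrophils, 30 of 30 effectors had a positive TN2 minus TN1 value with a median of 0.86, against 0.22 over all genes. As the median over all genes was above 0, most genes were positive too. With DESeq2, 29 of 30 effectors were positive. Without both tag_1341 libraries the edgeR count was 28 of 30 with a median of 0.44, against 0.21 over all genes. In monocytes 21 of 30 effectors were positive, with a median of 0.15 against 0.22 over all genes. On log2(TPM + 1), 28 of 30 were positive in monocytes with a median of 0.57 against 0.39 over all genes, so the side of the typical gene on which the list stood depended on the scale. The genes of each list with the smallest p are named next, none of which passed the test.

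In neutrophils the smallest p among effectors belonged to Bst2 and Ifi44. Bst2 had 55.1, 48.6 and 128 TPM in TN2 neutrophils and 13.1 and 32.7 TPM in TN1 neutrophils (log2 fold change 1.89 ± 0.62 SE, adjusted p = 0.943 by edgeR). Ifi44 had 4.95, 3.52 and 14.2 TPM in TN2 neutrophils and 1.33 and 0.0783 TPM in TN1 neutrophils (3.28 ± 1.12 SE, and 1.97 to 6.19 with 1 library left out). The highest TN2 library of both was tag_1341, the one with the most monocyte marker counts, and both genes were higher in monocytes. The same library was also the highest neutrophil library in Ifit3 and in Rsad2 (585 TPM against 208 to 425), both less abundant in monocytes. The part of monocyte RNA in the Bst2 and Ifi44 values was not tested. Among the signalling genes, Stat2 had 30.9 ± 13.5 TPM in TN2 neutrophils (n = 3) and 14.1 ± 9.35 TPM in TN1 neutrophils (n = 2; 1.22 ± 0.52 SE), and Irf9 had 181 ± 30.2 TPM in TN2 neutrophils and 145 ± 11.9 TPM in TN1 neutrophils (0.52 ± 0.32 SE). The values were 2.00 ± 0.96 for Fyn and 1.10 ± 0.87 for Kdm1a, a demethylase of IFITM3 in human cells (0.38 to 2.30 with 1 library left out), and 0.84 ± 1.56 for Tmem91 and 0.32 ± 0.67 for Ifitm5 (SE, log2 scale). On the TPM scale with limma the Fyn value was -0.15, so its sign rests on the scale.

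In monocytes the smallest p among effectors belonged to Ifit3, which codes for a partner of the RNA-binding protein IFIT1, and to Rsad2. Ifit3 had 75.2, 169 and 84.5 TPM in TN2 monocytes and 29.5 and 8.12 TPM in TN1 monocytes (log2 fold change 2.22 ± 0.72 SE, adjusted p of 1 by edgeR). Rsad2 had 49.7, 58.7 and 74.5 TPM in TN2 monocytes and 33.5 and 15.1 TPM in TN1 monocytes (1.02 ± 0.47 SE). Both genes were far more abundant in neutrophils, where Ifit3 averaged 750 ± 420 TPM (SD, n = 5), and neutrophil markers summed to more CPM in each TN2 monocyte library (2194 to 3687) than in the TN1 monocyte libraries (1692 and 1732). Their part in these values was not tested. The values were -0.63 ± 0.42 for Jak2, 0.50 ± 0.51 for Stat2, 1.58 ± 0.81 for Setd7, a methyltransferase of IFITM3 in human cells, and 3.98 ± 2.35 for Nedd4 (SE, log2 scale), the last resting on the tag_706 library and at -0.39 without it. Ifitm7 was at -1.26 ± 1.19. Ifitm10 had 1.08, 18.3 and 2.94 TPM in TN2 monocytes and was listed at 0 in both TN1 monocyte libraries. The library at 18.3 TPM was tag_706, the highest monocyte library in endothelial, stromal and epithelial markers.

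For the difference of the tumour effects, monocytes minus neutrophils, the genes with the smallest p were Bst2 (-2.11 ± 0.82), Ifi44 (-3.15 ± 1.40), Fyn (-3.01 ± 1.28), Setd7 (2.04 ± 1.09), Tyk2 (-1.35 ± 1.13, and -3.44 to -0.49 with 1 library left out), Ifnar1 (-0.45 ± 0.41), Ifitm7 (-0.96 ± 1.69) and Ifitm10 (SE, log2 scale). None passed, with an adjusted p of 1.0 by edgeR for each. Ifitm10 is given no value because its TN1 monocyte libraries were at 0.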

How the data were processed

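The authors deposited, per library, estimated counts, TPM and effective lengths for 85276 transcripts, made with kallisto 0.42.3 on GRCm38 per the labels and design text. Their comparison tables hold log2 group means and p-values, per the file headers; these were copied for the members only, and the authors' fold columns were not used. Transcripts were assigned to genes through GENCODE mouse release 21 (81839 matched) and summed; counts were rounded. Reads carry no molecular identifiers, so PCR copies remain. With R 4.3.3, edgeR 4.0.16 (filterByExpr, TMM, 1 model of 4 groups, threshold 0.05 after Benjamini-Hochberg adjustment) tested 13384 genes. DESeq2 1.42.0, limma 3.58.1 on log2(TPM + 1) and on log2(TPM + 0.1), RLE, no filter, length-scaled TPM, a tag block and libraries left out were alternatives. Scripts (Python 3.11.15) were tested on simulated data. The members and lists were chosen with earlier results of these data known. Named were the members, up to 4 called genes of each list by smallest p (otherwise 2), the 3 most similar profiles and the neighbouring genes. The file headers name no animal for a tag, and not every same-tag correlation was over 0.1, so tags were not used as pairs. Of the profiles most similar to Ifitm6, 2 are given, and the other is not reported here.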

Additional observations from a re-analysis of the deposited data

How the results depend on the processing

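Ifitm1 and Ifitm2 stayed lower in monocytes and past the threshold under every alternative run for the cell type comparison, libraries left out included. Where a value below changed, the cause was not tested. Genes called between the cell types were 3733 by edgeR (2070 higher, 1663 lower, 55.5% higher) and 5730 with limma on log2(TPM + 1) (4532 higher, 1198 lower, 79.1% higher), and 2682 to 3861 with 1 library left out, with 2 to 3 members among them. In the TPM settings Ifitm6 was at 0.17 and 0.17. The log2 ratio of Ifitm2 to Ifitm3 in monocytes was -0.85 in TPM and -1.01 in CPM. Between the tumours edgeR called 0 genes in neutrophils, while DESeq2 called 87, edgeR with no filter 2, and limma 1 and 3 with pseudocounts 1 and 0.1. In monocytes DESeq2 called 22. For the difference of the tumour effects DESeq2 called 30 and edgeR with no filter 1. With 1 library left out the range was 0 to 506 in neutrophils, 0 to 128 in monocytes and 0 to 372 for the difference; 506 and 372 came without the TN1 neutrophil library of tag_191, 128 without the TN1 monocyte library of tag_191, and no member was called in any. Signs of tumour values near 0 turned. In neutrophils Ifitm1 was at -0.028 (DESeq2), -0.028 (RLE), -0.0063 and -0.0063 (TPM settings), -0.071 with only that cell type fitted and -0.35 without both tag_482 libraries, and Fyn at -0.15, -0.25 (TPM settings) and -0.20 (length-scaled TPM). Without both tag_482 libraries Ifitm6 was at 0.26, Ifitm5 at -0.035 and Tmem91 at -0.0090, and without both tag_1341 libraries, a choice made after seeing the data, Ifitm5 was at -0.057 and Tmem91 at -0.44. In monocytes Ifitm3 was at 0.00339 with no filter, 0.32 and 0.32 in the TPM settings and 0.00409 with length-scaled TPM, and Ifitm2 at 0.30 and 0.30 in the TPM settings. Without both tag_482 libraries Ifitm1 was at -0.094 and Ifitm7 at 0.59 in monocytes. For the difference of the tumour effects Ifitm2 was at 0.24 and 0.24 and Ifitm7 at 0.00217 and 0.13 in the TPM settings, and without both tag_482 libraries Ifitm6 was at -0.15, Ifitm7 at 1.12 and Tyk2 at 0.26. With 1 library left out, the neutrophil ranges were -0.30 to 0.50 for Ifitm1, -0.38 to 0.32 for Ifitm6, -0.056 to 0.73 for Ifitm5 and -0.44 to 2.92 for Tmem91. The monocyte ranges were -0.16 to 0.79 for Ifitm1, -0.31 to 0.17 for Ifitm2, -0.26 to 0.18 for Ifitm3, -0.017 to 0.52 for Ifitm6, -2.12 to 0.55 for Ifitm7 and -0.39 to 4.81 for Nedd4. For the difference they were -0.15 to 0.84 for Ifitm1, -0.34 to 0.15 for Ifitm2, -0.089 to 0.74 for Ifitm6 and -1.73 to 0.94 for Ifitm7. With the replicate block on the tag, 3335 genes were called between the cell types (1793 higher, 1542 lower), Ifitm1 and Ifitm2 among them, Ifitm6 had an adjusted p of 0.0878 by edgeR, and Jak2 was no longer called (-0.85, adjusted p = 0.0936 by edgeR). Of the interferon receptor and signalling genes, 3 were then called, 0 higher and 3 lower, against 1 higher and 4 lower, so the higher call of Tyk2 was lost too. Deviations of libraries sharing a tag correlated at 0.0900 for tag_191 and tag_482 (1 value, since deviations in a group of 2 mirror each other), -0.0761 for tag_367, 0.377 for tag_706 and 0.352 for tag_1341, so not every pair was over 0.1 and the tags served as numbers alone. As a hint from the data, 4 of 5 monocyte libraries correlated best with the neutrophil library of their own tag. Those of tag_191 and tag_482 are among them and, being mirrored, are not separate matches. The tumour groups hold 2 or 3 libraries each, and what limits the number of calls was not tested.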
